A study of Mus musculus and synthetic RNA with 74 samples.

Results

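The Hippo pathway genes and the TEAD transcription factors they act on were followed through the transcriptomes of mouse preimplantation embryos. A set of 10 genes was taken by symbol, *Tead4*, *Tead1*, *Tead2*, *Yap1*, *Wwtr1*, *Lats1*, *Lats2*, *Amot*, *Amotl2* and *Nf2*, and each was listed at both stages, among 20330 genes at E2.5 and 21199 genes at E3.5. Single embryos from intercrosses of *Mettl16* heterozygous mice were sequenced to learn what loss of METTL16, an RNA m6A methyltransferase, does to the transcriptome. At E2.5, the morula stage, the series has 31 embryos, of which the authors called 5 wild type (*Mettl16*+/+, WT), 14 heterozygous (*Mettl16*+/-, HET) and 12 homozygous for the knockout allele (*Mettl16*-/-, KO). At E3.5, the blastocyst stage, it has 39 embryos, of which 18 were WT, 9 HET and 12 KO. The remaining 4 of the 74 libraries are an in vitro methylation assay on RNA oligos and were not used here.

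The KO allele carries a cassette of stop codons in an early exon of *Mettl16* and comes from 1 mouse line, made in B6D2F1/J embryos and crossed to C57BL/6JRj. Mothers were heterozygous and superovulated at both stages, so every embryo, whatever its genotype, developed from an egg of a *Mettl16*+/- female. The authors called each genotype from reads of the 2 *Mettl16* alleles in the same libraries. The values described here are the authors' means over all embryos of a stage, with the 3 genotypes together. They carry no error, the depth per embryo is not in these tables, and the level of a single genotype was not analysed here. WT embryos were 16.1% of those at E2.5 and 46.2% at E3.5, so stage and genotype mix cannot be told apart in any stage difference below. *Mettl16* itself had a mean of 778 normalized counts at E2.5 and 669 at E3.5 in these mixed averages.

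In the Hippo pathway, the kinases LATS1 and LATS2 phosphorylate the coactivators YAP (from *Yap1*) and TAZ (from *Wwtr1*) and keep them out of the nucleus. Unphosphorylated YAP and TAZ enter the nucleus and activate transcription with the DNA-binding TEAD proteins. In the mouse embryo this happens in outer cells, where TEAD4 with YAP drives the trophectoderm genes *Cdx2* and *Gata3*. In inner cells the angiomotins (AMOT, AMOTL2) and NF2 hold LATS at the cell junctions and the pathway is on.

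TEAD proteins bind the hexamer GGAATG, and the members' own promoters were searched for it on both strands (CATTCC on the other strand), in the RefSeq windows of GRCm38.p6 that run from 250 bases before to 50 bases after a gene's start. Of the 8 members with a promoter entry (*Tead4* and *Tead1* have none), 4 held the hexamer, against 14.7% of all 32851 promoters and 16.6% of 27025 symbols when any promoter of a symbol counts. It lay 141 bases before the start of *Yap1*, 136 bases before the more upstream start of *Wwtr1*, 65 bases before the start of *Amotl2*, and from base 5 of the transcribed sequence at 1 of the 2 starts of *Lats2*. These windows are shown because they are the members in which the pathway's own DNA motif stands at the promoter, with the motif in capitals, 5′ to 3′ on the gene's strand.
*Yap1*, chr9:8004702-8004767, minus strand: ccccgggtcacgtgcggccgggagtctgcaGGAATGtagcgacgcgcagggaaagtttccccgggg
*Wwtr1*, chr3:57576011-57576076, minus strand: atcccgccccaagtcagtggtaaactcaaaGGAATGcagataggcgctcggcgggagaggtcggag
*Amotl2*, chr9:102717709-102717774, plus strand: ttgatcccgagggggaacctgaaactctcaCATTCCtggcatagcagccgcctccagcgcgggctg
*Lats2*, chr14:57746102-57746131, minus strand: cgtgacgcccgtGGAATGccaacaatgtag
A match of letters is a description and not a bound site, and the windows of *Tead2*, *Lats1*, *Amot* and *Nf2* do not hold these letters. The 4 genes did not share a stage difference: *Amotl2* was the only one of them past 2-fold between the stages in the gene table. The nonamer TACAGAGAA, the sequence that METTL16 methylates, occurred in GENCODE M21 transcripts of 1 of the 10 genes, a *Lats2* transcript, and in those of 993 (4.54%) of 21877 protein-coding genes.

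Levels of different genes were compared per kilobase (kb) of merged RefSeq exon, within a stage. *Tead4* had the highest level of the 10 genes at both stages, with 1916 normalized counts per kb at E2.5 and 756 at E3.5, and *Lats1* the lowest, with 21.5 and 19.8, although *Tead2* lay close to it at E2.5. At E2.5 the order below *Tead4* was *Wwtr1* (426 per kb), *Yap1* (382), *Nf2* (308), *Amotl2* (129), *Lats2* (58.0), *Tead1* (35.2), *Amot* (29.4) and *Tead2* (21.8). At E3.5 it was *Tead2* (476 per kb), *Yap1* (427), *Amotl2* (424), *Wwtr1* (394), *Nf2* (197), *Tead1* (177), *Amot* (144) and *Lats2* (65.7). *Tead2* was thus at place 9 at E2.5 and at place 2 at E3.5. Its place depends on the length used: per kb of the longest GENCODE transcript (3396 bases) it had 13.9 at E2.5, the lowest of the 10 genes, and 302 at E3.5, at place 5. Without a spread over embryos it cannot be said which neighbours in these orders differ, for example *Yap1*, *Amotl2* and *Wwtr1* at E3.5. By mean count, *Tead4* stood above 95.7% of the 16562 genes with a mean of at least 1 at E2.5 and above 87.9% of 16787 at E3.5, and *Lats1* above 55.9% and 47.8%.

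**Figure D1:**
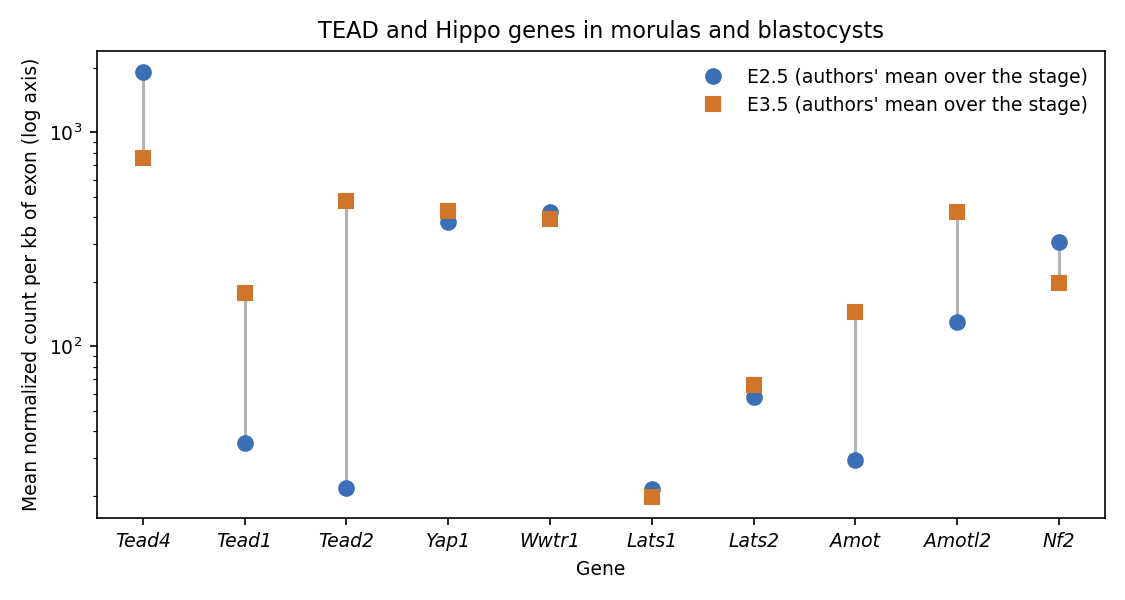
Level of the 10 genes per kb of merged exon (log axis) at E2.5 (circles) and E3.5 (squares), each point 1 mean over all embryos of the stage. *Tead4* is at the top at both stages, *Lats1* and *Tead2* are at the bottom at E2.5 and *Lats1* at E3.5, and the widest gap between stages is that of *Tead2*, from 21.8 to 476 per kb.

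The 2 stages were normalized separately by the authors, so each mean was first divided by the sum over its table (23557112 at E2.5 and 27145016 at E3.5) and scaled to parts per 1000000 (ppm). A gene was counted as different when its ppm differed 2-fold or more (1 on the log2 scale), with no test. Of the 10 members, 4 were higher at E3.5 (*Tead1*, *Tead2*, *Amot* and *Amotl2*), 1 was lower (*Tead4*) and 5 lay between. Across all 14120 genes with a mean of at least 10 at either stage, 35.3% were higher and 19.5% lower, so these counts are close to what the whole transcriptome shows between morula and blastocyst. The median log2 ratio of the 10 members was -0.03, against 0.41 over those 14120 genes. Over the 7599 genes with a mean of at least 100 at both stages the median was 0.18, and relative to it *Nf2* also passed 2-fold, at -1.03. Fewer cells of a type and less RNA per cell cannot be told apart in whole embryos.

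The TEAD genes differed between the stages in both directions, and *Tead2* had the largest ratio of the 10 members. *Tead4* (chr6:128227143-128300813, minus strand, mm10), the factor needed for the trophectoderm, had a mean of 5893 normalized counts at E2.5 and 2325 at E3.5, or 250.1 and 85.7 ppm. That is 2.92-fold lower at E3.5 (log2 ratio -1.55, or -1.73 relative to the median gene). *Tead1* (chr7:112679320-112906805, plus strand) had 351 counts at E2.5 and 1766 at E3.5, 4.37-fold higher by ppm. *Tead2* (chr7:45215753-45233619, plus strand) had 47.0 counts at E2.5 and 1026 at E3.5, 18.9-fold higher by ppm. TEAD1 and TEAD2 bind the same DNA motif as TEAD4 and share its use of YAP and TAZ. *Tead3*, the remaining family member, was the lowest, at 5.29 and 14.3 counts.

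The make-up of the TEAD family therefore differed between the stages. *Tead4* accounted for 97.0% of the summed per-kb level of the 4 *Tead* genes at E2.5 and for 53.5% at E3.5. *Tead2* accounted for 1.10% at E2.5 and 33.6% at E3.5, *Tead1* for 1.78% and 12.5%, and *Tead3* for 0.0891% and 0.337%. *Tead4* was still the highest of the 4 genes per kb at E3.5. These shares depend on the length used and on signal in the terminal exon. Per kb of the longest transcript, *Tead4* had 756 at E3.5, *Tead2* 302 and *Tead1* 177. Summed over upstream exons at E3.5, not per kb, *Tead4* had 1795 counts, *Tead1* 415 and *Tead2* 268. The place of *Tead2* above *Tead1* at E3.5 is thus not settled.

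The coactivators differed little between the stages in the gene tables. *Yap1* (chr9:7931999-8004596, minus strand) had 1592 counts at E2.5 and 1780 at E3.5 (67.6 and 65.6 ppm, log2 ratio -0.04). *Wwtr1* (chr3:57455644-57575910, minus strand) had 2039 counts at E2.5 and 1886 at E3.5 (86.5 and 69.5 ppm, log2 ratio -0.32). Per kb of merged exon, *Yap1* made up 47.2% of the sum of both at E2.5 and 52.0% at E3.5. These shares, too, depend on signal in the terminal exon. Summed over upstream exons, not per kb, *Yap1* had 1239 counts at E2.5 and 484 at E3.5, and *Wwtr1* 3234 and 1272. Whether the 2 coactivator mRNAs were present at close levels is thus not settled.

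The LATS kinases also differed little between the stages in the gene tables. *Lats1* (chr10:7681209-7716461, plus strand) had 155 counts at E2.5 and 143 at E3.5 (log2 ratio of ppm -0.32). *Lats2* (chr14:57689662-57746123, minus strand) had 322 counts at E2.5 and 365 at E3.5 (log2 ratio -0.03). *Lats2* made up 73.0% of the summed per-kb level of both kinases at E2.5 and 76.8% at E3.5.

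The angiomotins, which tie YAP and LATS to junctions and actin, were higher in the blastocyst gene table. *Amot* (chrX:145446424-145487639, minus strand) had 220 counts at E2.5 and 1078 at E3.5, 4.25-fold higher by ppm. *Amotl2* (chr9:102717804-102733417, plus strand) had 543 counts at E2.5 and 1776 at E3.5, 2.84-fold higher by ppm. *Nf2* (chr11:4765845-4849544, minus strand), whose product Merlin recruits LATS to the membrane, had 1633 counts at E2.5 and 1045 at E3.5, 1.80-fold lower by ppm.

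**Figure D2:**
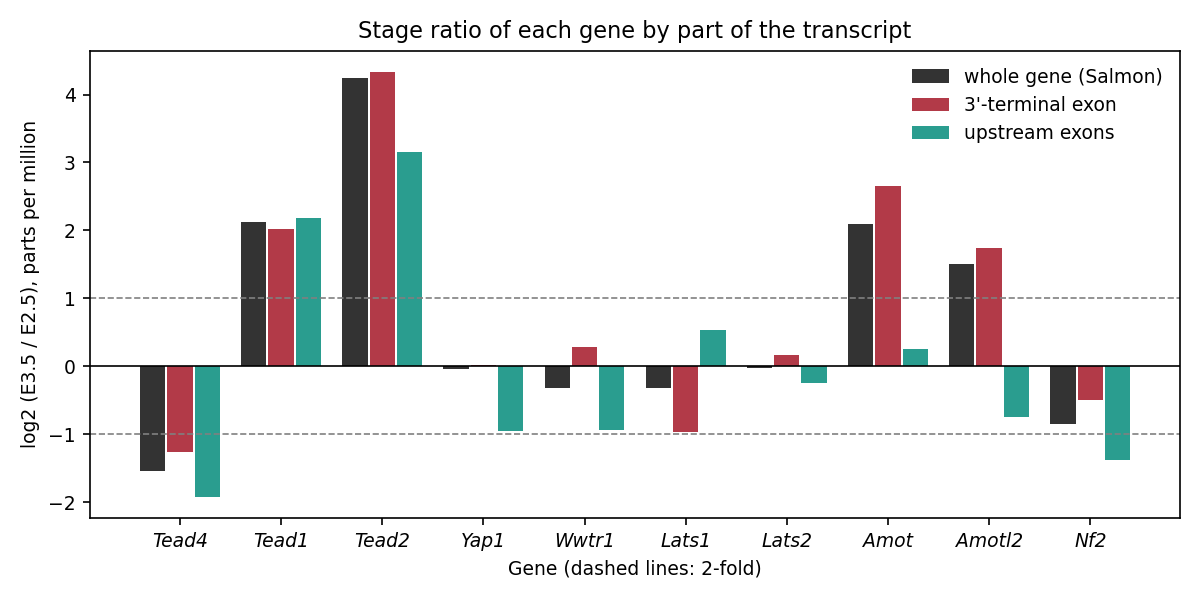
The log2 ratio of E3.5 to E2.5 (ppm) for each gene from the gene table, from the 3′-terminal exon alone and from all exons upstream of it, with dashed lines at 2-fold. The 3 bars point the same way for *Tead4*, *Tead1* and *Tead2*, while *Amotl2* is at 1.74 in its terminal exon and at -0.75 in its upstream exons.

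The authors also gave a mean for every single exon and intron, which shows where along each gene the signal lay. Signal at E3.5 was more concentrated in the 3′-terminal exon than at E2.5. Over 7982 genes with an exon sum of at least 100 at both stages, the terminal exon held a median of 20.5% of the signal at E2.5 and 34.8% at E3.5, and its share was higher at E3.5 in 91.0% of them. No library holds embryos of both stages, so stage and library cannot be told apart, in this shift as in every stage ratio from the gene tables. The share was higher at E3.5 in 9 of the 10 members. It went from 34.6% to 81.8% in *Amot*, from 54.9% to 91.7% in *Amotl2*, from 46.7% to 73.4% in *Yap1*, from 26.1% to 51.0% in *Nf2* and from 17.3% to 44.0% in *Wwtr1*. In *Tead4* it went from 21.3% to 40.7%, in *Tead2* from 44.6% to 74.6%, in *Tead1* from 68.0% to 75.3% and in *Lats2* from 29.7% to 47.5%. *Lats1* was the exception, with 61.8% at E2.5 and 47.7% at E3.5. The share of *Amotl2* at E3.5 stood above that of 96.4% of the 7982 genes.

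**Figure D3:**
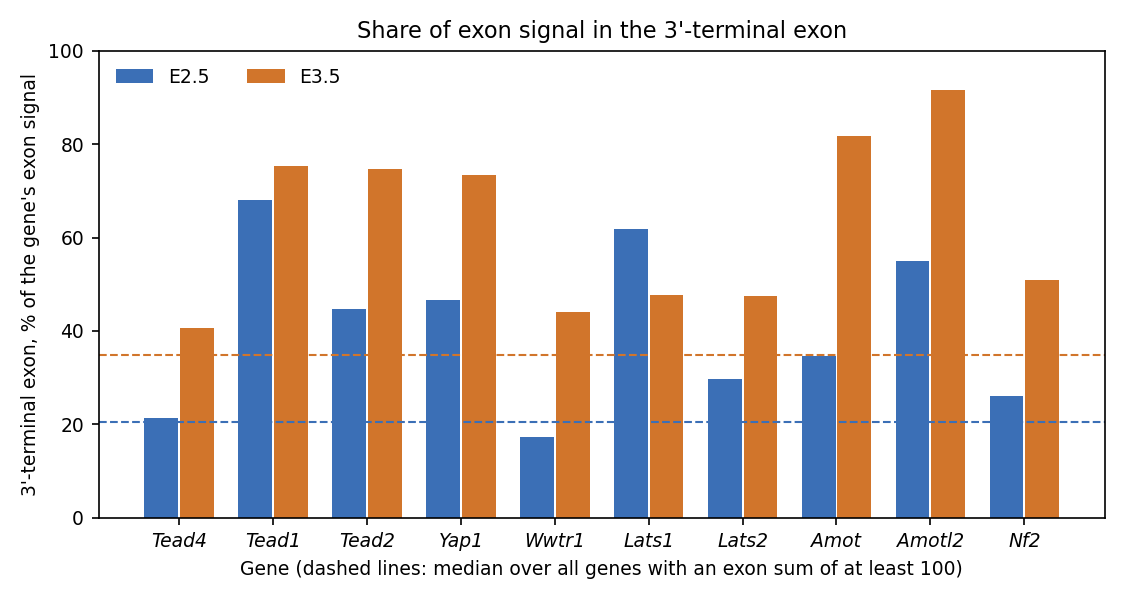
Percent of each gene's exon signal that lay in its 3′-terminal exon at E2.5 and at E3.5, with dashed lines at the median over 7982 genes (20.5% and 34.8%). All members but *Lats1* have the taller bar at E3.5, and *Amotl2* reaches 91.7%.

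The stage ratios were therefore recomputed from the terminal exon alone and from the exons upstream of it, each as ppm of the sum over that kind of exon. Where a single upstream exon is called higher or lower below, its mean was taken as ppm of the sum over all exons. In terminal exons 4 members were higher at E3.5 and 1 lower, as in the gene table, against 37.5% and 18.7% of 12334 genes. In upstream exons 2 members were higher (*Tead1* and *Tead2*) and 2 lower (*Tead4* and *Nf2*), against 29.0% and 28.8% of 12261 genes. The median log2 ratio of the 10 members was 0.22 in terminal exons and -0.50 in upstream exons. The directions of *Tead4*, *Tead1* and *Tead2* were the same in both parts of the gene, and those of *Amot* and *Amotl2* rested on the terminal exon.

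*Tead4* was lower at E3.5 in every one of its 12 exons. Its terminal exon (1337 bases) had a mean of 2442 at E2.5 and 1233 at E3.5, while its second exon had 1458 and 125. The log2 ratio was -1.26 in the terminal exon and -1.92 in the upstream exons. At E3.5 its exons formed a slope, from 59.9 in the fifth exon to 333 in the tenth, 581 in the eleventh and 1233 in the last, whereas at E2.5 the same 4 exons had 403, 1001, 1230 and 2442.

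*Tead2* was higher at E3.5 in every one of its 14 distinct exons. Its terminal exon (805 bases) had 32.3 at E2.5 and 788 at E3.5, and its upstream exons ranged from 0.46 to 13.3 at E2.5 and from 1.32 to 135 at E3.5. The log2 ratio was 4.33 in the terminal exon and 3.15 in the upstream exons. *Tead1* had 258 at E2.5 and 1262 at E3.5 in its 8259-base terminal exon (log2 ratio 2.02) and 2.18 as the log2 ratio of its upstream exons. Its first exon was the only upstream exon with a lower ppm at E3.5, with 26.3 at E2.5 and 15.3 at E3.5.

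*Amot* and *Amotl2* were higher at E3.5 mainly or only in the terminal exon. The 3675-base terminal exon of *Amot* had 107 at E2.5 and 815 at E3.5 (log2 ratio 2.66), while its 11 upstream exons ranged from 11.8 to 32.7 at E2.5 and from 7.74 to 37.5 at E3.5 (log2 ratio of their sum 0.25). That terminal exon is part of 1 of 2 RefSeq transcripts. A 760-base exon that no listed intron leaves had 18.4 and 12.7 and is counted as upstream. It overlaps a 233-base exon, so reads on both enter the upstream sum more than once. The 1770-base terminal exon of *Amotl2* had 370 at E2.5 and 1498 at E3.5 (log2 ratio 1.74). Its 9 upstream exons were all lower at E3.5 by ppm of all exons, for example the second exon with 43.2 and 10.2 and the sixth with 38.8 and 10.5. The ninth was only slightly lower on that scale, with 58.9 and 45.9 (log2 ratio -0.11). The log2 ratio of the sum of the upstream exons was -0.75. A terminal exon above 0 and upstream exons below 0 on this scale were seen in 18.6% of the 4881 genes with a mean of at least 100 in both parts at both stages.

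In *Yap1*, *Wwtr1* and *Nf2* the upstream exons together were lower at E3.5 while the terminal exon lay within 2-fold of its E2.5 level. The terminal exon of *Yap1* had 1086 at E2.5 and 1335 at E3.5 (log2 ratio 0.02), and its first exon 73.8 and 8.67. The terminal exon of *Wwtr1* had 677 at E2.5 and 1001 at E3.5 (log2 ratio 0.29), and its upstream exons had a log2 ratio of -0.94. The terminal exon of *Nf2* had 738 at E2.5 and 632 at E3.5 (log2 ratio -0.50), and its first exon 313 and 27.7, with a log2 ratio of -1.37 over the upstream exons, although 2 low alternative exons near its 3′ end were higher (10.5 and 19.5, 5.52 and 9.89). So *Nf2* was lower at E3.5 in both parts, past 2-fold only upstream. By ppm of all exons, however, the log2 ratio of its terminal exon was 0.03. *Lats1* went the other way, at -0.97 in its terminal exon and 0.54 upstream, on exon means of at most 24.8 upstream, and *Lats2* lay at 0.16 and -0.25.

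**Figure D4:**
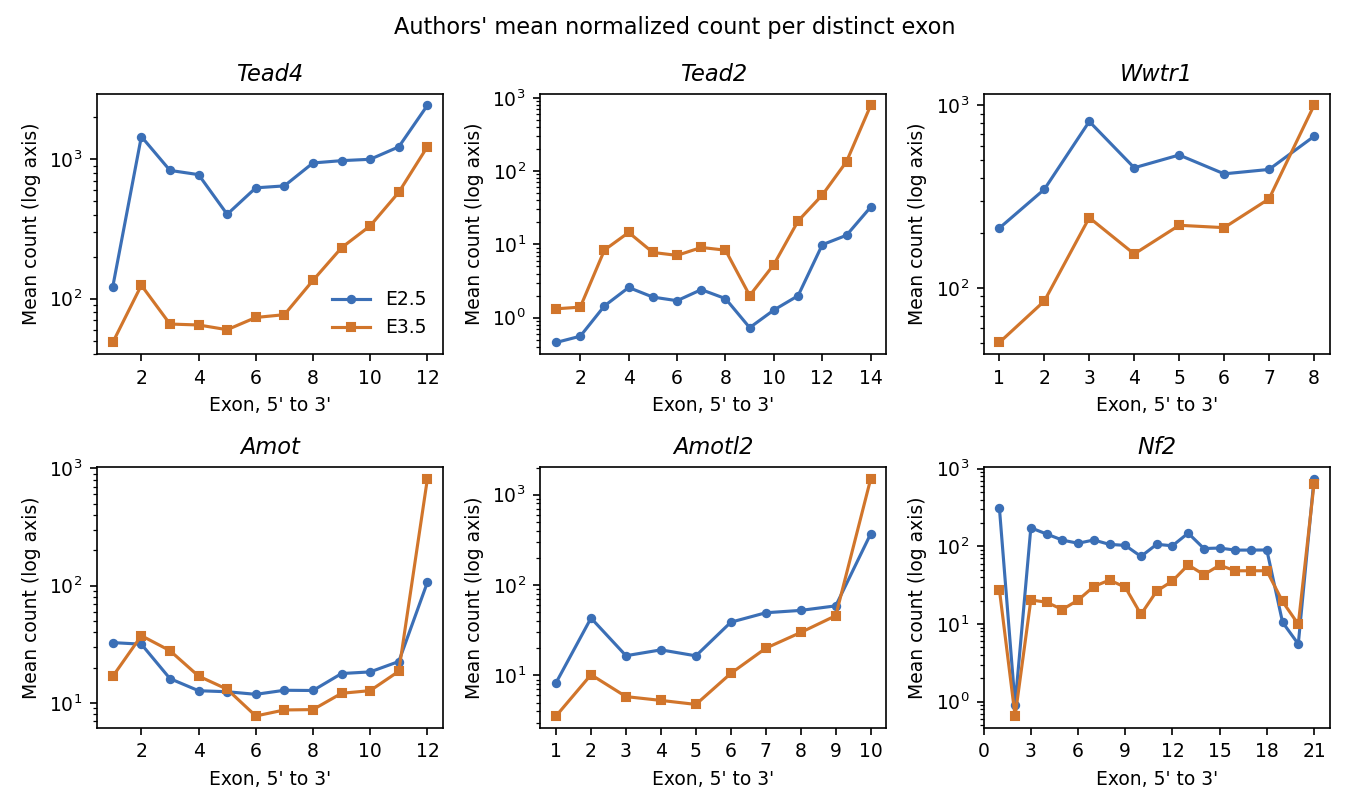
Mean normalized count of each distinct exon (log axis), in order from 5′ to 3′, for 6 genes at E2.5 (circles) and E3.5 (squares). The curves of *Tead4* and *Tead2* stay apart over the whole gene, whereas those of *Wwtr1*, *Amotl2* and *Nf2* cross or meet near the last exon and that of *Amot* parts there, with 815 against 107.

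Short alternative coding exons, under 130 bases, of the *Tead* genes and *Yap1* could be read in the same values. A read is counted on every exon it touches in these tables, since the 3 nested exons of *Nf2* that share a 5′ end had 89.2, 89.4 and 89.6 at E2.5, so a short exon can be set beside its neighbours. A longer one of *Amot* (873 bases) had 22.6 at E2.5 and 18.6 at E3.5, and those of *Lats2* are not shown. The 4 exons below are shown because each is part of some RefSeq transcripts of its gene and not of others, with the exon in capitals, 12 intron bases on each side, and the strand of the gene.
*Tead4*, chr6:128247960-128248088, 129 bases, minus strand: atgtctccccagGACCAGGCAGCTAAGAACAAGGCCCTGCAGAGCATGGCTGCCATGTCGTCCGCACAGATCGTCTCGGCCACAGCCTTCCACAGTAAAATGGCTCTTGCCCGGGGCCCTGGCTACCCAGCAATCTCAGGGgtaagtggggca
*Yap1*, chr9:7950492-7950539, 48 bases, minus strand: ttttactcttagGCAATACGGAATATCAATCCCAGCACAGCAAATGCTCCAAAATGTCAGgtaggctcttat
*Tead1*, chr7:112841888-112841950, 63 bases, plus strand: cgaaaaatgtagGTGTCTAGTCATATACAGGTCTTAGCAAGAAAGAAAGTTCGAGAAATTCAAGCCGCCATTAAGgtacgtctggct
*Tead1*, chr7:112856053-112856064, 12 bases, plus strand: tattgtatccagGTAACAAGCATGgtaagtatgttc
The *Tead4* exon had a mean of 403 at E2.5, below the 777 of the exon before it and the 625 of the shorter exon after it, and 59.9 at E3.5, where the neighbours had 64.7 and 73.3. The *Yap1* exon had 54.3 at E2.5 between neighbours of 229 each, and 29.0 at E3.5 between 90.6 and 137. These neighbours are longer, with 182 and 131 bases, and the means are not per length. The *Tead4* and *Yap1* exons thus had a lower mean than either neighbour at both stages, and junction reads were not analysed here.

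In *Tead1* the 2 alternative exons differed from each other. The 12-base exon had 0.18 at E2.5 and 0.26 at E3.5, near 0 beside the exon before it (8.59 and 119) and the exon after it (7.60 and 27.9). The 63-base exon had 2.80 at E2.5 and 35.6 at E3.5, and the exon after it, also 63 bases long, had 8.59 and 119. The 89-base intron between these 2 exons (chr7:112841951-112842039) had 2.83 at E2.5 and 74.1 at E3.5, which is 1073 counts per kb of intron and the highest intron density of the 10 genes at E3.5. A read that reaches from this intron into either 63-base exon is counted on that exon too. The means of both 63-base exons therefore cannot be read as exon use alone. These exons and this intron were singled out after their values were seen.

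Intron signal was set against exon signal as density per base, in percent, with the introns that overlap an exon of another transcript left out. The median over 7999 genes with an exon sum of at least 100 at both stages was 0.687% at E2.5 and 1.25% at E3.5. *Lats2* had 18.7% at E3.5, above 98.5% of those genes, *Lats1* 13.9%, above 97.6%, and *Tead1* 6.89%, above 92.0%. *Tead4* had 0.321% at E2.5 and 1.22% at E3.5, *Yap1* 1.21% at E3.5 and *Amotl2* 0.949% at E3.5, all below the median gene of the stage. At E2.5 *Tead1* had 5.79%, *Lats2* 3.81%, *Tead2* 3.45% and *Lats1* 2.99%. *Tead1* and both kinases thus carried more intron signal per exon signal than most genes at both stages. No exon of another RefSeq gene lies within the span of any of the 10 genes. Transcripts outside these RefSeq exons were not checked, and the libraries do not keep the strand.

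Other genes of the pathway were counted by role, outside the 10 members. Of 48 such genes with a mean of at least 10 at either stage, 29 were higher at E3.5 by 2-fold or more, 6 lower and 13 between, with a median log2 ratio of 1.42. Read against 35.3% higher among all genes, the share that was higher is above the background, and it is a description of lists that were chosen with results of these data known. In 19 of the 48 both terminal and upstream exons were higher by 2-fold or more, against 24.9% of 12759 genes with both values. In 6 both were lower, against 16.7%. Listed genes without an exon value, such as *Patj*, stay in the 48.

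Among partners of the TEAD proteins, *Vgll3* had 1.13 counts at E2.5 and 797 at E3.5, and *Vgll1* 1.87 and 258. Both encode Vestigial-like proteins that bind TEADs in place of YAP. *Vgll4*, which encodes a TEAD repressor, had 351 and 271 counts (log2 ratio of ppm -0.58). The 2 genes that were higher were so in both their terminal and their upstream exons.

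Among the 9 other core kinases and scaffolds 2 were higher and 4 lower at E3.5, against 35.3% and 19.5% of all genes. The paralogous MST kinases differed in direction, with *Stk3* (MST2) at 129 and 456 counts and *Stk4* (MST1) at 2096 and 1075. *Mob1a* had 732 and 129 counts and *Mob1b* 548 and 121, log2 ratios of ppm of -2.72 and -2.38. MOB1 proteins are the activating partners of LATS1 and LATS2. *Taok3* was also lower (248 and 61.3) and *Map4k4*, a kinase that can act on LATS beside the MST kinases, was higher (136 and 754). All 6 were past 2-fold in both their terminal and their upstream exons. *Taok1* was the highest of the list at both stages, at 3485 and 2907 counts.

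Among the 8 other genes that act beside the angiomotins and NF2, 6 were higher and none lower, against 35.3% and 19.5% of all genes. The 6 were *Limd1* (98.8 and 930 counts), *Wwc1* (42.3 and 311), *Amotl1* (14.7 and 80.6), *Ptpn14* (2.23 and 11.1), *Wtip* (24.7 and 109) and *Frmd6* (107 and 259). *Ptpn14* was near the minimum mean of 10. *Wwc1* encodes KIBRA, which works with NF2, and the LIM proteins LIMD1 and WTIP bind LATS. *Limd1* and *Frmd6* were past 2-fold in the terminal exon only. *Amotl2* was the highest angiomotin per kb, with 80.6% of the summed level of the 3 angiomotin genes at E2.5 and 73.5% at E3.5.

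Among 12 polarity genes, whose products in the embryo set outer against inner cells, 7 were higher and 1 lower. The shares over all genes were 35.3% and 19.5%. *Mpp5* had 93.4 and 820 counts, *Prkci* 184 and 1394, *Dlg1* 168 and 1026 and *Pard3* 334 and 1710, and *Patj*, *Prkcz* and *Scrib* were higher with log2 ratios from 1.12 to 1.62. *Scrib* was past 2-fold in the terminal exon only, and *Patj* had no exon values under its symbol. *Crb3* had 3775 and 1373 counts. Of 5 junction genes 4 were higher, against the same 35.3% of all genes. However, *Cdh1*, which encodes E-cadherin, was at 2.20 in its terminal exon and -0.77 in its upstream exons, the same signs as in *Amotl2*. *Cgn*, *Ctnna1* and *Ctnnb1* were likewise past 2-fold in the terminal exon and not in the upstream exons.

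**Figure D5:**
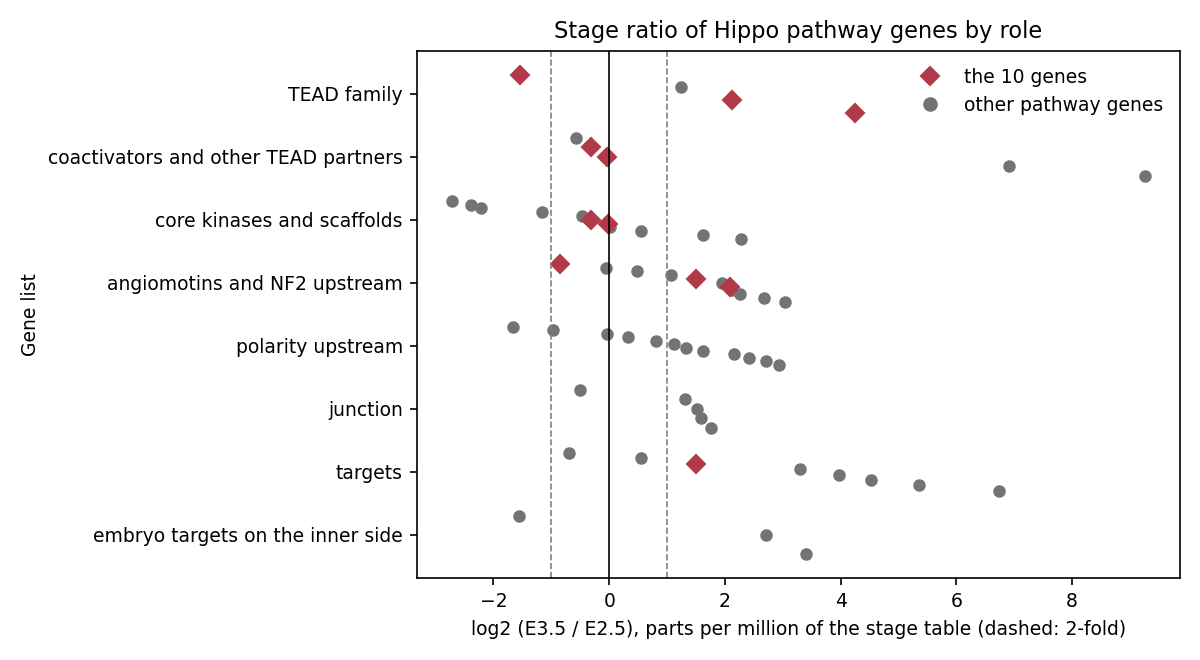
The log2 ratio of E3.5 to E2.5 (ppm of the stage table) for each gene of the 8 lists, 1 point a gene, with the 10 members as diamonds and dashed lines at 2-fold. The TEAD partners reach farthest to the right, with *Vgll3* at 9.26, and the core kinases spread to the left, with *Mob1a* at -2.72.

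Of the 7 genes listed as TEAD targets other than *Amotl2*, 5 were higher at E3.5, against 35.3% of all genes. All 5 were higher in terminal and upstream exons alike, against 24.9% of genes with both values. *Gata3* had 511 counts at E2.5 and 9266 at E3.5 and *Cdx2* 171 and 1940, and both are transcription factors of the trophectoderm. The keratins *Krt8* (651 and 30837) and *Krt18* (1332 and 35173) mark the same epithelium, and *Ankrd1* had 0.26 and 32.5. The general YAP targets *Cyr61* (391 and 278 counts) and *Ctgf* (80.5 and 136) did not pass 2-fold, at log2 ratios of -0.69 and 0.55. *Tead4* was thus lower in the blastocyst average in which 5 of these listed genes were higher. *Gata3*, *Cdx2*, *Krt8* and *Krt18* are also in the list of trophectoderm markers below, so the 2 lists are not separate observations. On the inner side, *Sox2* (13.6 and 165 counts) and *Nanog* (552 and 4161) were higher and *Pou5f1* (9017 and 3527) was lower.

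Markers of cell types were checked because whole embryos were sequenced. The summed level of 7 trophectoderm markers was 343 ppm at E2.5 and 3087 ppm at E3.5, with 6 of the 7 higher at E3.5 and *Tfap2c* lower. Most of the E3.5 sum was *Krt8* (1136 ppm) and *Krt18* (1296 ppm). The 6 oocyte and maternal markers summed to 93.1 ppm and 5.85 ppm, led by *Zp3* with 1587 and 104 counts. The 6 pluripotency markers summed to 516 and 389 ppm. Of these *Pou5f1* (383 and 130 ppm) and *Esrrb* (57.1 and 38.9 ppm) were lower at E3.5, and *Nanog*, *Sox2*, *Klf4* and *Fgf4* were higher. The 5 primitive endoderm markers summed to 213 and 210 ppm, with *Gata4* at 53.8 and 9.32 ppm and *Pdgfra* at 4.00 and 58.0 ppm. Markers of the oviduct and uterine epithelium summed to 20.3 ppm at E2.5 and 1.09 ppm at E3.5, with *Ovgp1* at 320 and 25.3 counts, *Ltf* at 129 and 0.04, *Pax8* at 28.1 and 4.13 and *Foxj1* at 0.34 and 0.06. Cumulus and granulosa markers summed to 0.124 and 0.162 ppm, with *Lhcgr* listed at neither stage, and 4 blood markers to 4.00 and 5.47 ppm. The trophectoderm, maternal and oviduct levels differed between the stages as those of several members did, and their part in the members' differences was not tested.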

How the data were processed

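Single embryos were sequenced by Smart-seq2 on polyadenylated RNA, without strand information. Per the labels and the study's methods, the authors quantified RefSeq transcripts (mm10) with Salmon 0.7.2 and summed them to genes, and aligned reads with STAR and counted single exons and introns with featureCounts, introns being shortened by 10 bases at both ends. The deposited signal used here is the mean normalized count that the authors obtained with DESeq2 1.18.1 over all embryos of a stage, for each gene, exon and intron. The tables also hold the authors' comparisons between genotypes (fold changes and adjusted p-values), which were not used, and no values per embryo were analysed here, so no test was run. Python 3.11.15 with pandas 2.3.3 computed ppm of the table total, ratios between stages, levels per kb of merged exon, ranks and exon shares. Exons listed for several transcripts were used once, and overlapping exons each count in a sum. The terminal exon is the exon that reaches farthest downstream. Columns of values per sample left out numbered 0. The 10 members were named with all values. Other genes come from fixed role lists and were named when past 2-fold or highest or lowest in their list. The members and lists were chosen with earlier results of these data known. Some genes of these lists are not reported here.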

Additional observations from a re-analysis of the deposited data

How the results depend on the processing

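No paired analysis was possible because the tables hold 1 mean per stage and no value per embryo, and for the same reason no replicate could be left out. The count of members higher at E3.5 was 4 in the gene table and stayed 4 under median scaling, summed exons, a total without the 100 most abundant genes, a fold of 1.5, a pseudocount of 0.5 ppm and terminal exons alone. From upstream exons it was 2, also relative to the median gene (chosen, as was the terminal exon, after seeing the data). The count of members lower at E3.5 was 1, and 2 under median scaling, under a fold of 1.5 and from upstream exons with or without centring on the median gene. The log2 ratio of *Amotl2* turned to -0.75 from upstream exons and to -0.79 relative to the median gene. Over all alternatives *Tead4* ranged from -1.96 to -1.26, *Tead1* from 1.95 to 2.40 and *Tead2* from 3.10 to 4.33, all past 2-fold. At E3.5, 8 members lay above 75% of genes, and 5 with a minimum mean of 10 or per kb of exon. With the length of the longest transcript, 4 members took another place in the order per length at each stage, *Tead2* place 10 in place of 9 at E2.5 and 5 in place of 2 at E3.5. No error can be given for any value, and the reads per library that the paper lists were not used here.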
